A study of Mus musculus with 29 samples.

Results

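The RNA of microglia grown in culture was set against the RNA of the adult mouse cortex, both from control arms. The 7 libraries compared were chosen by their labels among 29 in the whole series: all 4 libraries of primary microglia that received sc-control, and all 3 libraries of prefrontal cortex (PFC) that received sc-control. sc-control is a locked nucleic acid oligonucleotide that serves as negative control for a microRNA inhibitor, and every library compared had been exposed to it. The microglia were labelled as CD1 cells and came from pups at postnatal day 1, whose mixed glia were grown in serum and L929-conditioned medium, a source of the growth factor M-CSF, until the microglia were shaken off, plated and treated. The PFC libraries came from male C57BL/6J mice of 3 months, 1 mouse each, injected into the PFC on both sides with sc-control in lipid nanoparticles and dissected days later. The sex of the pups was not given.

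Microglia are the resident macrophages of the brain. They arise from yolk sac progenitors, depend on the receptor CSF1R, engulf debris and synapses, and in the healthy brain carry a signature (P2RY12, TMEM119, SALL1) that is maintained by signals from neighbouring cells such as TGF-beta, IL-34 and CX3CL1. Isolated microglia are known to lose much of that signature in culture. Microglia are a small share of cortical cells, and most cortical transcripts come from neurons, astrocytes and oligodendrocytes.

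The groups differed in strain, age, preparation, delivery and sequencing as well as in cell type, and these cannot be told apart. Only differences of at least 8-fold (log2 fold change beyond 3) with an adjusted p under 0.05 by edgeR's quasi-likelihood test were therefore called. Total counts ran from 21324156 to 33912795 in the microglia and from 28450652 to 36475236 in the PFC. All levels are CPM, counts rescaled to a common library total with TMM factors, and values are listed in the order of culture 2, 3, 4 and 6 and of PFC mouse 2, 3 and 4. Within a group, libraries differed from each other by more than sampling noise, so each was counted as 1 sample. Nothing in the labels says whether the 4 cultures came from separate preparations, and p-values then measure only the spread between these samples. PFC mouse 4 had more myeloid RNA than the other two: the 20 genes shared by all myeloid cells summed to 210.1, 206 and 292 CPM in the 3 mice.

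Of 48709 genes in both tables, 17586 had enough reads to be tested. Genes called higher in the microglia numbered 1631 (9.27% of those tested), and genes called higher in the PFC 3646 (20.7%). Without PFC mouse 4 these counts were 1731 and 3725. The groups did not overlap for any called gene, but this was also so for 90.7% of all genes tested. The median log2 fold change over all genes tested was -0.12. Genes called higher in the microglia took 31.4% to 31.9% of the reads of the cultures and 1.42% to 1.68% of those of the PFC. Genes called higher in the PFC took 32.6% to 33.6% of PFC reads and 0.939% to 1.04% of reads in the cultures. Protein-coding genes made up 1290 of the 1631 genes and 2950 of the 3646. Of 520 long intergenic RNAs tested, 202 were called higher in the PFC and 53 in the microglia. Pseudogenes went the other way, with 203 called higher in the microglia and 41 in the PFC out of 556 tested. Reads of pseudogenes can be split with their parent genes, and the reference genome is of one of the 2 strains, so these counts are uncertain.

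**Figure D1:**
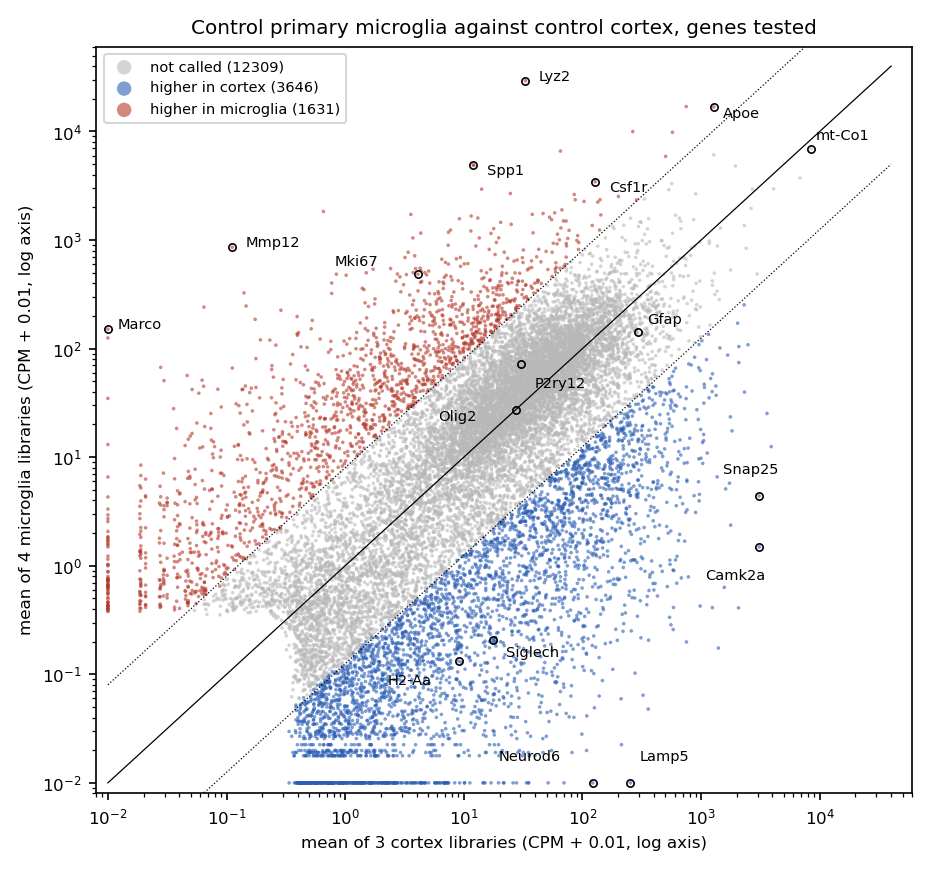
Mean level of each tested gene in the 3 PFC (cortex) libraries (x axis) and the 4 microglia libraries (y axis), in CPM plus 0.01 on log axes. The solid line marks equal levels and dotted lines 8-fold differences; 1631 genes (red) were called higher in the microglia and 3646 (blue) in the PFC, and named genes are circled.

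The 10 genes with the highest CPM in the cultures included lysosomal, lipid and actin genes of macrophages. Lyz2, which codes for lysozyme, reached 31090.2, 28510.4, 28326 and 29306 CPM in the 4 cultures and 18.5, 28.1 and 52.7 CPM in the PFC. The lysosomal proteases Ctsb (16827 to 17114 CPM) and Ctsd (9722 to 10211 CPM), the lipid carrier Apoe (15925 to 17765 CPM) and the actin-binding peptide gene Tmsb4x (9156 to 10259 CPM) were next in CPM, with the mitochondrial mt-Co1, the pore-forming Mpeg1 (6460 to 6689.7 CPM), the ferritin gene Fth1, Actb and Spp1 completing the 10 highest. These 10 highest genes of a library took 10.6% to 10.9% of culture reads. In the PFC the 10 highest took 3.915% to 4.835%, and the genes with the highest mean CPM were 6 mitochondrial ones (mt-Co1, mt-Cytb, mt-Nd1, mt-Rnr2, mt-Nd5 and mt-Nd2), the long non-coding RNA Meg3, the axonal motor Kif5a, the synaptic kinase Camk2a and the vesicle fusion protein Snap25. On the scale of CPM per kilobase of exon, Lyz2 stood at 22271 CPM in the cultures, Ctsb at 2802 and Apoe at 7859.8.

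Genes shared by all myeloid cells were raised together in all 4 cultures. All 20 pan-myeloid genes were called higher in the microglia, with log2 fold changes from 4.5 to 6.67 and a median of 5.88. Their summed level was 12357, 11939, 12007 and 11912 CPM in the cultures, 51-fold the PFC level (exact permutation test of log2 sums, two-sided p = 0.0571, the smallest that 4 against 3 libraries allow). Tyrobp, the signalling adaptor of TREM2, was at 1508, 1435, 1409.9 and 1468 CPM in the cultures and 18.1, 17.8 and 25.4 CPM in the PFC. Spi1, which codes for PU.1, the factor that specifies myeloid cells, was at 439, 383, 402 and 381 CPM in the cultures and 4.33, 4.43 and 6.7 CPM in the PFC (log2 fold change 6.27, edgeR adjusted p = 8.6e-17). In both cases every culture exceeded every mouse by far. Csf1r, the M-CSF receptor, was at 3576, 3323, 3533 and 3339.8 CPM in the cultures against 118, 121 and 144 CPM in the PFC (log2 fold change 4.75). In bulk samples such as these, fewer cells of a type and less RNA per cell cannot be told apart.

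Of 25 transcription factors, 13 were called higher in the microglia and 1 in the PFC, with a median log2 fold change of 3.46. Over all genes tested, 9.27% and 20.7% were called. Relative to the pan-myeloid genes (a scale described below), 1 lay more than 4-fold above and 15 more than 4-fold below (median -2.28). Besides Spi1, those called higher in the microglia included Runx1 (6.14), Irf8 (5.18), Irf5 (5.53), Ikzf1 (4.88), Cebpa (4.84) and Maf (4.57), all regulators of myeloid cells. Tfec, a relative of the lysosome regulator MITF, had 26.5, 27, 28.4 and 30.1 CPM in the cultures and 3 reads over the 3 PFC libraries, a ratio of 1006 (95% interval 344 to 4879, counting error only). Mitf itself was at 83.5 to 96.8 CPM in the cultures and 6.31 to 6.96 CPM in the PFC (log2 fold change 3.76). Nr4a1, an orphan receptor induced by activity, was the 1 factor called higher in the PFC, at 171, 189.6 and 233 CPM there and 6.63, 4.93, 6.22 and 6.1 CPM in the cultures.

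Promoters of the called genes were searched for a motif of PU.1. The motif GAGGAAG holds the core that PU.1 and other ETS factors recognise. It was looked for on both strands of RefSeq promoters (GRCm38.p6, 250 bases before to 50 after a gene's start), where a match is only a description. It was found in 20.2% of the 1308 promoters of genes called higher in the microglia, in 12.6% of the 3230 promoters of genes called higher in the PFC, in 13.6% of the 15952 promoters of all genes tested and in 13.6% of all 32851 promoters. Of the 17 promoters of pan-myeloid genes, 7 held it (41.2%). Symbols matched for 1072 of the 1631 and for 2431 of the 3644 distinct symbols. Promoters rich in CpG (observed over expected above 0.6) were 40.1% and 40.7% of those of the called genes, against 62.1% of all genes tested. The 4 promoters below were chosen for holding a match, among the protein-coding genes with the largest fold changes toward the microglia. Of the other such genes, named in the next paragraph, Ifi202b and Cd300lb had a promoter without a match. No promoter was listed for Msr1, Atp6v0d2, Ctse and Fabp4. Mmp12 also had another listed promoter, which held no match. The 250 bases before the start are given on the gene's strand, with the match (GAGGAAG or its reverse complement) in capitals.
Marco, chr1:120505025-120505274, minus strand, match starting 146 bases before the start: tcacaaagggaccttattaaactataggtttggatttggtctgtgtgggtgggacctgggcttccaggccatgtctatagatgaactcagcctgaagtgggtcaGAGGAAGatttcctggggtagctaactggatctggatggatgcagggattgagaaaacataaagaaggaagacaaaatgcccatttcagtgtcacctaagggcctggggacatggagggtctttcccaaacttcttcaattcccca
Mmp12, chr9:7344147-7344396, plus strand, match starting 87 bases before the start: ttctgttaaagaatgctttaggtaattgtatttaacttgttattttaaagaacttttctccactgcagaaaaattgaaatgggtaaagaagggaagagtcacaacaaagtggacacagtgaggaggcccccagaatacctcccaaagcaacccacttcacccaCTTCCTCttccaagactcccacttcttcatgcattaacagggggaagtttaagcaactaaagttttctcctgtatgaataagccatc
Clec4d, chr6:123261857-123262106, plus strand, match starting 241 bases before the start: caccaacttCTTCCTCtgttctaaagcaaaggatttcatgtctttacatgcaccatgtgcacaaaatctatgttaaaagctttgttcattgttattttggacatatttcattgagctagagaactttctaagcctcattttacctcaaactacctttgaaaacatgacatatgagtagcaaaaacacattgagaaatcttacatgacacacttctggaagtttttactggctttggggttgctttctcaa
Cd300ld3, chr11:115048331-115048580, minus strand, match starting 187 bases before the start: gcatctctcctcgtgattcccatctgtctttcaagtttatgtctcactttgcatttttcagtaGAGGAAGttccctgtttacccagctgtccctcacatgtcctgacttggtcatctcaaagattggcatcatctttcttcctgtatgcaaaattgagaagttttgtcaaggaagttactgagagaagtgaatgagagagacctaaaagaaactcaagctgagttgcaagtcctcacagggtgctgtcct
The Marco, Mmp12 and Clec4d windows hold no CpG at all (observed over expected 0.00), and the Cd300ld3 window is nearly without it (0.06).

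Those 4 genes were among the 10 protein-coding genes with the largest fold change toward the microglia (mean of at least 20 CPM in the cultures). Marco, a scavenger receptor, was at 155, 152, 143 and 153 CPM in the cultures and had no read in any of the PFC libraries, so that it was at least 5375-fold higher (floor of 3 reads over the group). Msr1, another scavenger receptor, reached 1829, 1851, 1798 and 1856 CPM in the cultures and 0.361, 0.744 and 0.831 CPM in the PFC (log2 fold change 11.48, SE 0.32, edgeR adjusted p = 6.8e-19). Mmp12, the macrophage elastase, reached 807, 898, 824 and 903 CPM against 0.0258, 0.0647 and 0.214 CPM (log2 fold change 12.97), with 1, 2 and 8 reads in the 3 mice. For each of them the lowest culture was above the highest mouse by a wide margin. The C-type lectin Clec4d (303 to 354 CPM against 0.0516 to 0.259), the immune receptors Cd300lb (241 to 258 against 0.0647 to 0.214) and Cd300ld3 (39.4 to 43.8 against 0 to 0.0971), the protease Ctse (182 to 191 against 0.0258 to 0.402) and the lipid chaperone Fabp4 (54.6 to 58.8 against 0 to 0.0774) were likewise far apart between the groups. Atp6v0d2, a macrophage and osteoclast subunit of the proton pump, was at 58.3 to 75.7 CPM with 2 reads over the PFC group, a ratio of 3648 (95% interval 1009.5 to 30127, counting error only). Ifi202b, an interferon-inducible gene whose level is known to vary between inbred strains, was at 137, 137, 111 and 117 CPM in the cultures with no read in the PFC, at least 4422-fold higher.

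To set single genes against myeloid content, each gene was also expressed relative to the mean of the 20 pan-myeloid genes of the same library on the log2(CPM + 0.1) scale. A difference of 0 on this scale means that the gene kept its proportion to the pan-myeloid genes. It can be read only for genes that the cortex expresses mainly in myeloid cells: 94.5% of all genes tested lay more than 4-fold below 0 with no overlap, a share that holds the genes of every other cortical cell, and 0.273% (48 genes) lay more than 4-fold above. The 48 genes above were led by Mmp12 (6.45), Msr1 (5.61), Xist (4.9), Clec4d (4.86), Marco (4.85), Ifi202b (4.57), Cd300lb (4.37), Lyz2 (4.21) and Ctse (4.02), and also held Cybb, the catalytic subunit of the phagocyte oxidase (3.28), the complement receptors C5ar1 (3.11) and C3ar1 (2.38), and the formyl peptide receptor Fpr1 (2.88). Xist, set against male mice, and Ifi202b, whose level is known to vary between strains, cannot be read on this scale.

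**Figure D2:**
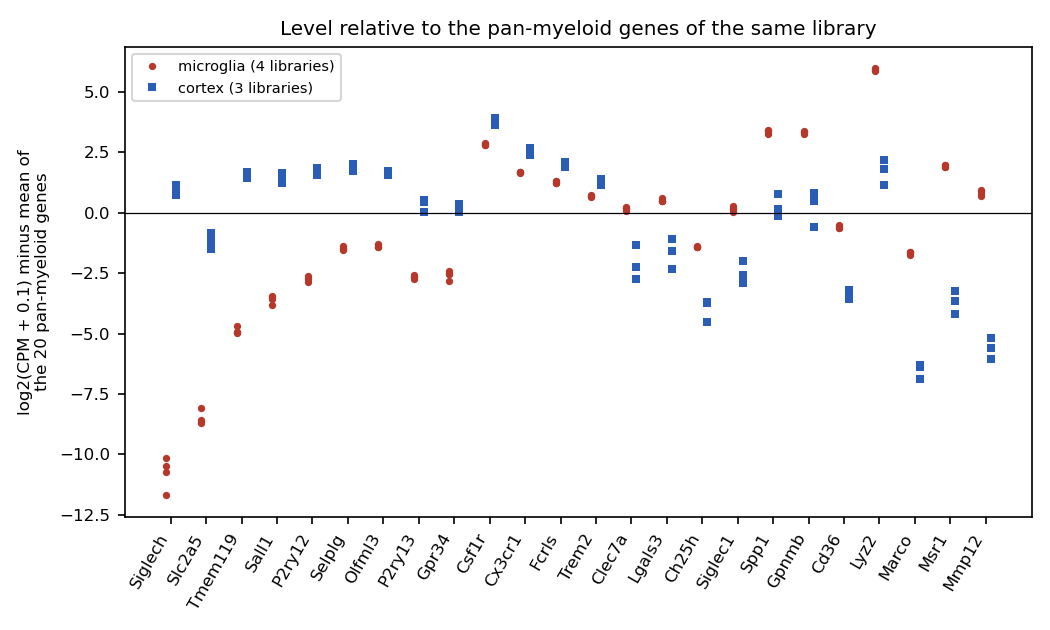
Level of 24 myeloid genes in each library relative to the 20 pan-myeloid genes of that library (y axis, log2), for the 4 microglia libraries (red circles) and the 3 PFC libraries (blue squares). Siglech to Gpr34 sit lower in the cultures, Csf1r to Trem2 differ by less than 1, and Clec7a to Mmp12 sit higher in the cultures.

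Most of the homeostatic microglia list fell behind the pan-myeloid genes, and a smaller part stayed near them. On their scale, 0 of its 20 genes lay more than 4-fold above and 15 more than 4-fold below (median -3.55). Over all genes tested, 94.5% lay below in this way. By fold change, 5 of the 20 were called higher in the microglia, 1 was called higher in the PFC and 14 were not called. The median log2 fold change was 2.16 beside 5.88 for the pan-myeloid genes. Among the 5 were Csf1r, the fractalkine receptor Cx3cr1, Fcrls and Trem2. Cx3cr1 was at 1535, 1548, 1555 and 1524 CPM in the cultures and 53.1, 51.3 and 60.6 CPM in the PFC (log2 fold change 4.81, -0.9 relative to the pan-myeloid genes). Trem2, the lipid-sensing receptor, was at 801, 751, 785 and 756 CPM and 18.9, 20.8 and 26 CPM (log2 fold change 5.14, relative -0.57). Fcrls (-0.76) and Csf1r (-0.96) also stayed within 1 log2 unit of the pan-myeloid genes.

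The best known homeostatic markers fell far behind. P2ry12, the ADP receptor that steers microglial processes, was at 68.2, 72.8, 71.1 and 77 CPM in the cultures and 29.7, 23.4 and 38 CPM in the PFC. Although higher in every culture (log2 fold change 1.25, edgeR adjusted p = 2.8e-08), it did not reach 8-fold and lay -4.44 relative to the pan-myeloid genes. Tmem119, a membrane protein that marks microglia among brain macrophages, was at 15.8, 15.5, 18.4 and 15.3 CPM in the cultures and 26.4, 24 and 31.8 CPM in the PFC, so that cultures with 51 times the pan-myeloid RNA of the cortex had less of it (log2 fold change -0.75, relative -6.46). Sall1, the factor that maintains microglial identity, was at 34.8, 40, 43.3 and 41.7 CPM and 22.9, 24.7 and 26.9 CPM (log2 fold change 0.69, relative -5.03). Of the 3, P2ry12 and Sall1 were higher and Tmem119 lower in every culture than in every mouse, each by less than 8-fold. Gpr34 (-2.82), P2ry13 (-3.0), Olfml3 (-3.03) and Selplg (-3.39) lay between, at log2 fold changes of 2.86, 2.72, 2.68 and 2.33. Bin1, Cst3, Sparc, Golm1 and Sall3 of the same list are also expressed by other brain cells, so their relative values do not bear on microglia alone.

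Siglech, a sialic acid-binding lectin used as a microglial marker, was nearly absent from the cultures. It had 1, 6, 5 and 10 reads in the 4 cultures and 627, 536 and 716 in the PFC, that is 0.0499, 0.237, 0.181 and 0.311 CPM against 16.2, 17.3 and 19.2 CPM (log2 fold change -6.37, edgeR adjusted p = 1.4e-14, relative -11.71). In the anti-miR-99b libraries of the same 2 experiments it was at 0.112 to 0.212 CPM in the 4 cultures and 16.8 to 19.9 CPM in the 3 mice. The fructose transporter Slc2a5 was also low in the cultures, at 1.1, 1.15, 1.08 and 1.62 CPM against 3.56, 4.37 and 4.05 CPM (relative -7.34). For Siglech, strain, age and culture cannot be told apart.

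All 20 disease-associated and lipid-handling genes were called higher in the microglia, with log2 fold changes from 3.06 to 8.67 (median 5.57), a median below that of the pan-myeloid genes (5.88). Relative to those, 5 lay more than 4-fold above and 2 more than 4-fold below, with a median of -0.12. Spp1, which codes for osteopontin, was at 4724, 4941, 4992 and 5114 CPM in the cultures and 9.1, 7.09 and 19.8 CPM in the PFC (log2 fold change 8.67, edgeR adjusted p = 7.1e-14). Gpnmb, a glycoprotein of lipid-laden macrophages, was at 4771, 4922, 4914 and 4857 CPM and 5.42, 10.9 and 20.1 CPM (log2 fold change 8.65). Both were highest in mouse 4 among the mice and still far below every culture. Ch25h, which makes 25-hydroxycholesterol, was at 191, 179.5, 181 and 177 CPM against 0.258, 0.518 and 0.778 CPM (log2 fold change 8.45). The beta-glucan receptor Clec7a (7.81) and the galectin Lgals3 (7.76) completed the 5, and lipoprotein lipase Lpl (7.7), Capg (7.54) and Igf1 (7.31) came close behind. Apoe was also called (15925, 16036, 17491 and 17765 CPM against 1250, 1248 and 1342 CPM, log2 fold change 3.71), but the cortex has its own, largely astrocytic source. Axl (3.06, relative -2.65) and Fabp5 (3.45, relative -2.27) were the 2 below, and Axl lost its call with upper-quartile scaling (2.96).

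Among 10 genes of border and peritoneal macrophages, 5 were called higher in the microglia and 1 in the PFC. The mannose receptor Mrc1 was at 238, 269, 263 and 270.4 CPM in the cultures against 4.9, 4.11 and 5.42 CPM, Pf4 at 32.1 to 36.2 against 0.49 to 0.841 CPM, Ms4a7 at 241 to 274 against 1.11 to 2.82 CPM, Folr2 at 11.9 to 13.8 against 0.0323 to 0.206 CPM and Siglec1 at 559.8, 532, 576 and 488 against 1.31, 0.971 and 2.84 CPM. Relative to the pan-myeloid genes, 1 of the 10 lay more than 4-fold above and 5 more than 4-fold below (median -2.17). The 1 above was Siglec1, a sialic acid-binding adhesion receptor (2.64), and the 5 below were Lyve1, Cd163, F13a1, Cbr2 and Clec10a. Mrc1 (0.02), Folr2 (0.28) and Pf4 (-0.23) kept to the pan-myeloid genes. Lyve1 (0 to 0.118 CPM in the cultures) and the haemoglobin scavenger Cd163 (0.513 to 0.615 CPM), which mark perivascular macrophages, stayed low in all 4 cultures. The genes of this list thus differed in direction.

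**Figure D3:**
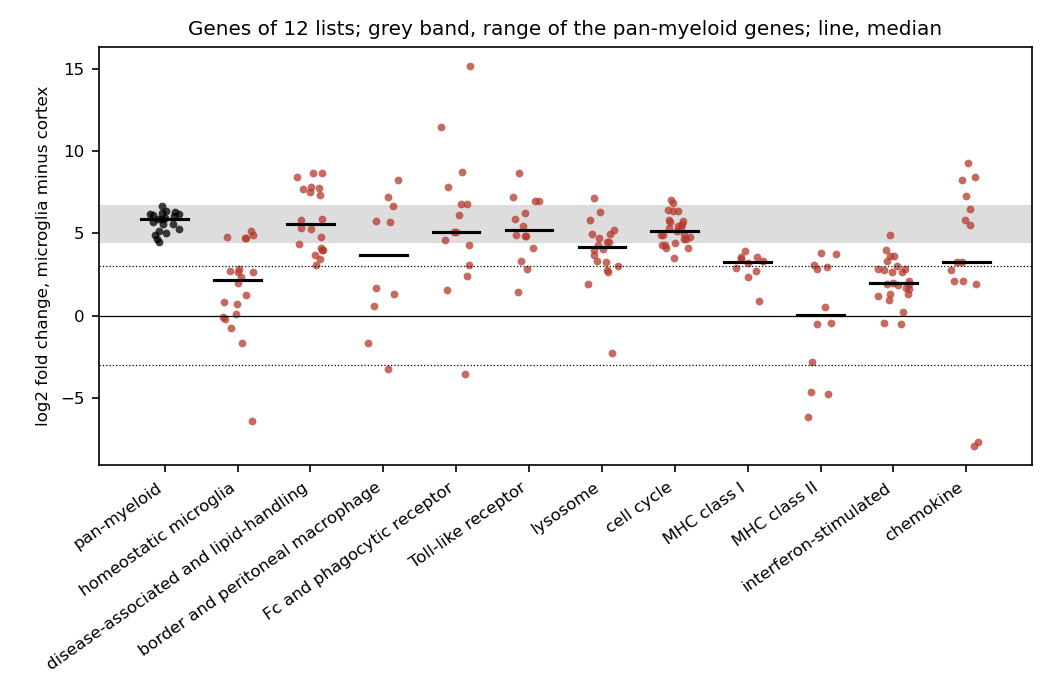
Log2 fold change (microglia minus PFC, y axis) of each tested gene of 12 lists, with the median of each list as a line, 8-fold as dotted lines and the range of the pan-myeloid genes (4.5 to 6.67) as a grey band. The homeostatic median of 2.16 lies under the band, and all disease-associated and cell cycle genes lie above 3.

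Of 15 Fc and phagocytic receptors, 12 were called higher in the microglia and 1 in the PFC. Relative to the pan-myeloid genes their median was -0.6, with 4 more than 4-fold above and 4 more than 4-fold below. Beyond Marco and Msr1, those called higher in the microglia included the fatty acid receptor Cd36 (315, 330.3, 309 and 335 CPM against 0.619, 0.776 and 0.885 CPM, log2 fold change 8.73), the lipopolysaccharide co-receptor Cd14 (852, 739, 751 and 745 CPM against 3.25, 2.78 and 4.13 CPM, 7.82) and the clearance receptor Stab1 (2664, 2658, 2808 and 2609 CPM against 21.9, 23 and 29.1 CPM, 6.76). The 1 called higher in the PFC was Megf10, an engulfment receptor of astrocytes (26 to 27.8 CPM against 1.9 to 2.71). Mertk (2.41) and Scarb1 (1.57) were higher in the cultures by less than 8-fold.

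Toll-like receptors and their adaptors followed, with 12 of 14 tested called higher in the microglia (median log2 fold change 5.19). Their median relative to the pan-myeloid genes was -0.6, with 1 more than 4-fold above and 3 more than 4-fold below. Tlr8 had the largest value (101, 111, 105 and 114 CPM against 0.284, 0.0647 and 0.402 CPM, 8.66), ahead of Tlr13 (7.2), Tlr7 (6.99) and Tlr2 (6.96), sensors of RNA and of bacterial lipopeptides. Tlr3 (1.46), the sensor of double-stranded RNA that other brain cells also express, and its adaptor Ticam1 (2.84) stayed under 8-fold. Of 14 tested complement genes, 11 were called higher in the microglia and 2 in the PFC. Against the pan-myeloid genes, 2 lay more than 4-fold above and 4 more than 4-fold below (median -1.03). The 3 chains of C1q, which starts the classical pathway, ran together at log2 fold changes of 4.82 (C1qa), 4.36 (C1qb) and 4.93 (C1qc), and C1qa was at 1950, 1837, 1887 and 1909.6 CPM against 59.7, 59.4 and 82.4 CPM. C5ar1 (8.84) and C3ar1 (8.05) were further up. C4b, made largely by astrocytes and oligodendrocytes, was called the other way, at 0.748, 0.987, 0.615 and 0.872 CPM in the cultures and 42.5, 51.8 and 85 CPM in the PFC.

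Of 20 lysosomal genes, 16 were called higher in the microglia by edgeR's test. The list summed to 49938, 49302, 49755 and 50214 CPM in the cultures. This was about 21.6 times the PFC, beside 51 times for the pan-myeloid genes. On the scale of those genes, 0 lay more than 4-fold above and 8 more than 4-fold below (median -1.52). Cd68, a macrophage lysosomal membrane protein, led with 1721, 1653, 1631 and 1657 CPM against 8.82, 10.4 and 15.4 CPM (log2 fold change 7.17). Those not called included Npc1 (1.9), Asah1 (2.79) and Ctsk (-2.27), the last at about 1 CPM in the cultures and lower there than in the PFC. Of 15 matrix protease genes and inhibitors, 9 were called higher in the microglia, among them Plau, the urokinase (482, 523, 490.4 and 513 CPM against 3.84, 3.33 and 4.02 CPM), its receptor Plaur (6.15) and Adam8 (7.3). Against the pan-myeloid genes, 1 of the 15 lay more than 4-fold above and 8 more than 4-fold below (median -2.21). The protease inhibitor Timp3 was lower in the cultures (-1.53), by less than 8-fold.

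Cell cycle genes rose as a group. All 25 cell cycle genes were called higher in the microglia, with log2 fold changes from 3.48 to 7.04 (median 5.16). Over all genes tested, 9.27% were called in this direction. The median was below that of the pan-myeloid genes (5.88). Against those, 0 lay more than 4-fold above and 1 more than 4-fold below (median -0.66). Mki67, present only in cycling cells, was at 451, 512, 475 and 498 CPM in the cultures and 4.54, 3.3 and 4.45 CPM in the PFC (log2 fold change 6.87, edgeR adjusted p = 3.2e-18). Bub1, of the spindle checkpoint, had the largest value (61.4, 64, 61 and 67.1 CPM against 0.49, 0.421 and 0.509 CPM, 7.04) and Pcna, the replication clamp, the smallest (153, 148, 142 and 155 CPM against 13.5, 13.9 and 12.8 CPM, 3.48). The 4 cultures differed by at most 1.14-fold for Mki67. Markers of other proliferating glia were present in the same cultures (given with the other cell types), and which cells carried the cell cycle RNA was not tested.

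Cytokine genes went in both directions. Of 12 tested genes, 8 were called higher in the microglia and 1 in the PFC. Relative to the pan-myeloid genes, however, 0 lay more than 4-fold above and 5 more than 4-fold below (median -0.82). Tnf was at 43, 37.7, 40.4 and 36.4 CPM in the cultures and 0.129, 0.0971 and 0.214 CPM in the PFC (log2 fold change 8.0), Acod1, the itaconate-making enzyme, at 45.7, 41.9, 40.5 and 39.2 and 0.0258, 0.162 and 0.188 CPM (8.38), and the interleukin-1 antagonist Il1rn at 32, 30.1, 26.9 and 30.3 and 0.0774, 0.0323 and 0.241 CPM (7.89). Each of these was under 0.3 CPM in all 3 mice. Il1b (10.6 to 13.7 CPM) and Il1a (8.29 to 9 CPM) were called too. Il6, Il12b and Nos2 stayed under 0.3 CPM in all 4 cultures, and Ptgs2, which neurons express, was called higher in the PFC (19.2, 20.1 and 20.7 CPM against 2.74, 2.88, 1.88 and 2.49).

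Among 15 chemokines, 9 were called higher in the microglia and 2 in the PFC. Set against the pan-myeloid genes, 2 lay more than 4-fold above and 8 more than 4-fold below (median -2.79). Ccl4 was at 149, 143, 132 and 137 CPM against 0.335, 0.259 and 0.59 CPM (log2 fold change 8.43) and Ccl3 at 152, 158, 147 and 152 CPM against 0.258, 0.485 and 0.778 CPM (8.22), both attractants of monocytes and lymphocytes. Cxcl2, a neutrophil attractant, was at 7.46 to 8.98 CPM with 1 read over the PFC group, a ratio of 902 (95% interval 161 to 35648, counting error only). Cxcl16 (6.48) and Ccl9 (7.28) were called as well. The 2 called the other way were the neuronal Cx3cl1 (-7.92) and the vascular and stromal Cxcl12 (-7.67).

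Interferon-stimulated genes had smaller differences. Set against the pan-myeloid genes, 0 lay more than 4-fold above and 22 more than 4-fold below (median -3.74). Of 25, 6 were called higher in the microglia and 19 were not called, with a median log2 fold change of 2.01. The 6 were Oas1a (4.88), Ifitm3 (4.01), Oas2 (3.63), Oas3 (3.6), Bst2 (3.35) and Zbp1 (3.05). Zbp1, the sensor of Z-form nucleic acids, was at 13.6, 14.4, 10.3 and 10.2 CPM in the cultures and 1.29, 1.17 and 1.85 CPM in the PFC. It passed 8-fold by little and was not called with upper-quartile scaling (log2 fold change 2.95), without culture 3 (2.97), without mouse 2 (2.96) or mouse 3 (2.93), or in the anti-miR-99b libraries (2.66), and it was among the genes that differed between the cultures by sequencing lane (described with the cultures). Ifit3 (-0.41), Ifi44 (-0.5) and Gbp2 (0.25) had values near 0. In the PFC the list summed to 172, 146 and 242 CPM, again with mouse 4 highest.

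Class I and class II antigen presentation went apart. Of 10 class I genes, 6 were called higher in the microglia, including B2m (1787, 1712, 1624 and 1695 CPM against 121, 119 and 189 CPM, 3.58) and H2-D1 (3.59), and the 4 others were higher by less than 8-fold. Against the pan-myeloid genes, 0 of the 10 lay more than 4-fold above and 9 more than 4-fold below (median -2.4). The classical class II genes were nearly silent in the cultures. H2-Aa was at 0.0998, 0.079, 0.217 and 0.0934 CPM against 6.81, 6.89 and 13.4 CPM (log2 fold change -6.15), H2-Ab1 at 0.399, 0.237, 0.253 and 0.405 against 6.71, 7.09 and 12.9 CPM (-4.77) and H2-Eb1 at 0.349, 0.316, 0.326 and 0.311 against 5.91, 5.92 and 12.7 CPM (-4.65), and all 3 were called higher in the PFC. PFC mouse 4 had about the sum of the other two mice. The invariant chain Cd74 was not called (12.6, 12.3, 13.6 and 12.6 CPM against 14.6, 14.2 and 25.3 CPM), and the peptide loader H2-DMb2 (3.75) and the costimulators Cd86 (3.81) and Cd80 (3.08) were called higher in the microglia. Ciita, the master regulator of class II, was at 0.0998 to 0.47 CPM in the cultures and 1.52 to 2.31 CPM in the PFC.

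Of 15 genes of signals between neurons and microglia, 7 were called higher in the microglia and 3 in the PFC, beside 9.27% and 20.7% of all genes tested. On the scale of the pan-myeloid genes, 0 lay more than 4-fold above and 8 more than 4-fold below (median -2.74). The list holds neuronal ligands, for which that scale cannot be read. Cx3cl1 was at 992, 1014 and 883 CPM in the PFC and 3.89, 3.67, 3.98 and 4.23 CPM in the cultures, and its receptor Cx3cr1 the reverse. Il34, the neuronal ligand of CSF1R, was at 68.6, 71 and 67 CPM in the PFC and 0.299, 0.118, 0.108 and 0.156 CPM in the cultures (log2 fold change -8.7), while Csf1, its other ligand, was at 22.7, 23.4, 24.8 and 25.2 CPM in the cultures and 31.1, 31.3 and 38.8 CPM in the PFC. Cd200 was called higher in the PFC (-3.98) and its receptor Cd200r1 in the microglia (6.44). Tgfb1, the factor that maintains homeostatic microglia, was itself called higher in the microglia (297, 283, 310.1 and 283 CPM against 5.72, 5.63 and 7.59 CPM, 5.53), as were Tgfbr1 (3.74) and Tgfbr2 (4.2). Cd47 (0.41) and its receptor Sirpa (2.55) were both higher in every culture and not called.

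Purinergic receptors differed among themselves. Of 20 purinergic and channel genes, 8 were called higher in the microglia and 1 in the PFC, beside 9.27% and 20.7% of all genes tested. Set against the pan-myeloid genes, 0 lay more than 4-fold above and 15 more than 4-fold below (median -3.11). P2ry6, the UDP receptor that triggers phagocytosis, was at 207, 187, 187 and 185 CPM against 4.02, 2.85 and 4.77 CPM (log2 fold change 5.6), the proton channel Hvcn1 at 5.22, P2ry2 at 5.05, P2rx4 at 3.94 and P2rx7 at 3.42, while P2ry14 (-0.25) was not called and its groups overlapped. Adora2a was called higher in the PFC (15.7, 9.71 and 2.79 CPM against 0.2, 0.158, 0.181 and 0.156) with a wide spread between mice. The potassium channel Kcnk13, which maintains the resting potential of microglia, was higher in the cultures (2.59) by less than 8-fold.

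Cholesterol synthesis stayed close between the groups, and few glycolytic genes were called. All 18 cholesterol synthesis genes stayed within 8-fold, with log2 fold changes from -2.13 to 0.79. Of 9 tested efflux genes, 5 were called higher in the microglia, including the exporter Abca1 (534, 669.8, 677 and 692 CPM against 33.9, 32.3 and 45.4 CPM, 4.11), Soat1 (4.06) and Apoc1 (7.47). Against the pan-myeloid genes, 1 of the 9 lay more than 4-fold above and 4 more than 4-fold below (median -2.0). Of 20 glycolytic genes, 2 were called higher in the microglia and 3 in the PFC, no more than the shares over all genes tested would give (9.27% and 20.7%). The hexokinases Hk3 (506, 480.2, 492 and 468 CPM against 2.4, 2.94 and 2.9 CPM, 7.47) and Hk2 (4.43) were those of the microglia, and the enolase Eno2 (-5.07), the aldolase Aldoc (-4.22) and the phosphofructokinase Pfkm (-3.87) those of the PFC. Gapdh had only 12.6 to 14.4 CPM in the cultures, a value that is uncertain because many near-identical pseudogenes can share its reads.

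Immediate-early genes gave a mixed picture. Of 20, 2 were called higher in the microglia (Atf3, 7.48, and Zfp36, 4.78) and 6 in the PFC, where Arc, a gene of active neurons, was at 352, 445 and 568 CPM against 1.05, 1.18, 0.724 and 0.996 CPM (-8.85). Fosb, Egr1, Egr3, Nr4a1 and Npas4 were the other 5. Over all genes tested, 9.27% were called higher in the microglia and 20.7% in the PFC. Fos did not separate the groups (77.2, 70.4, 75.1 and 67.3 CPM against 60.5, 69.6 and 87.2 CPM), and its values overlapped.

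Protein-coding genes with the largest fold change toward the PFC were mostly those of projection neurons and interneurons. Lamp5 (273, 246 and 243 CPM), Neurod6 (127, 106 and 132 CPM) and Sowaha (76.5, 61.8 and 71.6 CPM) had no read in any culture, at least 8930.4-fold, 4306-fold and 2471-fold higher in the PFC (floor of 3 reads over the group). Somatostatin, Sst, was at 211, 224 and 205 CPM with 1 read over the 4 cultures, a ratio of 22361 (95% interval 4013 to 883247, counting error only). Nrgn, a calmodulin-binding protein of dendrites, was at 1573, 1355 and 1274 CPM against 0.299, 0.079, 0.217 and 0.0623 CPM. The tight junction gene Cldn5, which marks brain endothelium, also had no read in any culture and was at least 1821-fold higher. Igfn1, Sstr3 and Zfp831 were also among the 10, all without a read in the cultures. The PFC showed its labelled tissue in the cortical factors Tbr1 (131 to 142 CPM) and Fezf2 (55.4 to 56.5 CPM).

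Marker RNA of cells other than microglia was present at unequal levels in the cultures, and which cells carried it was not tested. Summed over their marker lists, erythroid RNA reached 0.268% of the PFC level, excitatory neuron RNA 0.188%, pan-neuronal RNA 2.4%, inhibitory neuron RNA 2.87%, oligodendrocyte RNA 4.06%, astrocyte RNA 6.87%, pericyte and smooth muscle RNA 17%, endothelial RNA 28%, fibroblast and meningeal RNA 48.4% and oligodendrocyte precursor RNA 56.6%. These are ratios of RNA to the adult cortex, not shares of cells, since the cortex itself holds unequal numbers of each cell. A few members made up much of some sums, Flt1 of the endothelial, Acta2 and Tagln of the pericyte and Fn1 of the fibroblast list, and the median member of these lists was at 1.78%, 3.46% and 47.7% of its PFC level.

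**Figure D4:**
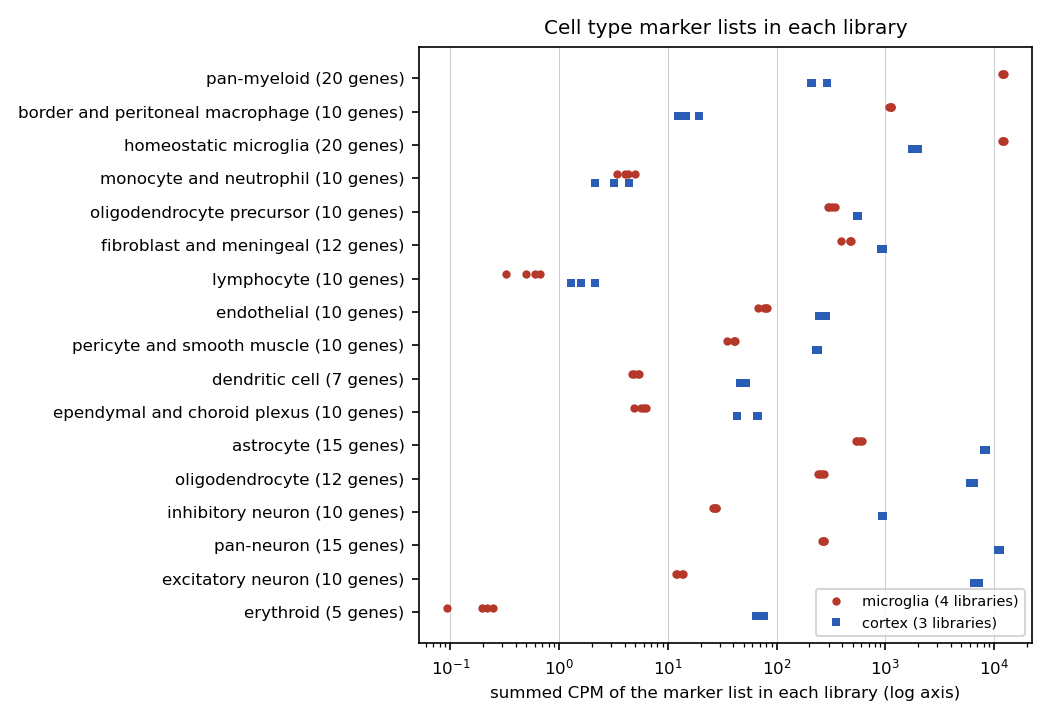
Summed level of 17 cell type marker lists in each library (x axis, CPM, log axis), with the 4 microglia libraries as red circles and the 3 PFC libraries as blue squares. The 2 groups overlap only for the monocyte and neutrophil list and come nearest to each other for oligodendrocyte precursor and fibroblast markers.

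Among the other cell types given above, oligodendrocyte precursors had the highest summed level relative to the PFC (56.6%). Of 10 markers, 2 were called higher in the PFC and 8 were not called. This is near the share over all genes tested, of which 20.7% were called higher in the PFC. The median log2 fold change was -0.34, beside -0.12 over all genes tested. At 1 CPM or more in all 4 cultures were 9 of the 10. Olig2, the lineage factor, was at 24.1, 25, 29.6 and 29.1 CPM in the cultures and 26.8, 28.1 and 27.5 CPM in the PFC (log2 fold change -0.02, edgeR adjusted p = 0.78). Cspg4, the NG2 proteoglycan, was higher in the cultures at 64.4, 63.8, 70.3 and 64.3 CPM against 18.8, 20.9 and 19.1 CPM (1.75), as was Lhfpl3 (37.1, 41.9, 42.8 and 43 CPM against 14.3, 13 and 18.4 CPM, 1.43). Pdgfra, the growth factor receptor of these cells, was at 22.2, 25.1, 29.4 and 26.8 CPM against 46.7, 47.3 and 47.1 CPM. For these 4 genes the cultures were within 4-fold of whole cortex in either direction. The markers of the next stage were scarce: Gpr17 was at 2.45 to 3.15 CPM and Neu4 at 0.0311 to 0.15 CPM, and both were called higher in the PFC.

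Mature oligodendrocyte markers were uneven. Mbp was at 111, 101, 114 and 108 CPM in the cultures and 2421, 2554 and 2479 CPM in the PFC and Cnp at 75.9 to 87.8 CPM in the cultures, while Mobp, Mal, Ermn and Opalin, which come late, stayed under 1 CPM in all 4 cultures. Of the 12 markers, 10 were called higher in the PFC. Of 15 astrocyte markers, 11 were called higher in the PFC and 14 were at 1 CPM or more in all cultures. Gfap, the filament of reactive and immature astrocytes, was at 134, 134, 145 and 151 CPM in the cultures and 209.7, 269 and 396 CPM in the PFC, 48.4% of the PFC mean and not called. Sparcl1 (162 to 182 CPM) and Slc1a3 (46.2 to 52.9 CPM) were also present, whereas Gjb6, a connexin of mature astrocytes, had 3 reads over the 4 cultures.

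Neuronal markers were uneven in the same way. Stmn2 (20.1 to 21.9 CPM), Tubb3 (39 to 43.6 CPM), Gap43 (37.9 to 41.4 CPM) and Map2 (57.1 to 66.5 CPM), which immature neurons already express, were measurable in every culture, and Gap43 and Tubb3 were the 2 of 15 pan-neuronal genes not called. Snap25 (4.08 to 4.54 CPM against 2719.7 to 3281) and Rbfox3 (0.977 to 1.3 CPM against 255 to 279) of mature neurons were low. All 10 excitatory markers were called higher in the PFC, and 8 of 10 inhibitory ones, with Dlx1 (6.14 to 6.66 CPM) and Adarb2 (3.19 to 5.01 CPM) as the exceptions. Dlx1 is a factor of interneuron progenitors.

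Several vascular genes were at or near 0 and others were present. Tek, Emcn, Slco1a4 and Erg were under 0.1 CPM in all 4 cultures like Cldn5, while Flt1, a receptor for VEGF, was at 54.8, 62, 64.8 and 65.4 CPM against 80.5, 69.4 and 78.6 CPM, Kdr at 9.38 to 11.5 CPM and the endothelial cadherin Cdh5 at 2.19 to 2.68 against 16.9 to 18.9 CPM (not called). The pericyte markers Rgs5 (0.0934 to 0.249 CPM) and Vtn (0 to 0.15 CPM) were nearly absent, Pdgfrb was at 2.55 to 3.24 against 26.6 to 32.7 CPM and called higher in the PFC, and the contractile genes Acta2 (21.1, 21, 17.9 and 21.4 CPM against 14.7, 19 and 17.6) and Tagln (14, 15, 11.6 and 14.6 against 9.93, 11.7 and 13.9) had overlapping values. Collagens were present, Col1a1 at 21.9, 32.8, 19.6 and 24.7 CPM against 16.3, 17.2 and 17.1 CPM and Col3a1 at 11.6, 14.4, 8.5 and 9.71 against 7.01, 8.83 and 9.33 CPM, but the fibroblast proteoglycans Dcn (0.289 to 0.711 CPM) and Lum (0.0499 to 0.158 CPM) were near 0. Fibronectin, Fn1, was at 278, 330.1, 363 and 367 CPM against 67.9, 71.3 and 82.9 CPM, which macrophages also make, and the matricellular Postn was the 1 gene of this list called higher in the microglia (17.2, 18.6, 19.5 and 19.9 CPM against 2.58, 1 and 1.37 CPM).

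Markers of other blood cells were mostly low in both groups. The neutrophil genes Ly6g, Retnlg, Ngp, Mpo, Elane and S100a9 had no read in any culture, but S100a8 was at 2.04, 2.17, 2.31 and 1.59 CPM against 0.49, 0.194 and 0.241 CPM (log2 fold change 2.65, not called), and the monocyte receptor Ccr2 was at 1.35, 2.8, 1.81 and 2.43 CPM against 1.21, 1.2 and 2.57 CPM and not called. Of 10 lymphocyte markers, Trac alone was tested, and none exceeded 1 CPM in a culture. Of 5 tested dendritic cell genes, 4 were called higher in the PFC and 0 in the microglia, with log2 fold changes from -8.47 to -2.19. Among them, the factor Zbtb46 was at 4.05 to 4.7 CPM in the cultures, and Flt3, which cortex expresses (7.64 to 9.17 CPM), had 2 reads over the 4 cultures. Haemoglobin genes were called higher in the PFC, with Hbb-bs at 51.3, 41.5 and 46.9 CPM against 1 read over the 4 cultures.

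Neighbouring genes of several immune families were mostly called higher in the microglia (families chosen after their values were seen, coordinates on GRCm38). Of 12 Cd300 genes at chr11:114890041-115133992, 8 were tested and all 8 were called higher in the microglia (median log2 fold change 6.15). Of 19 Ms4a genes at chr19:11301249-11604849, 7 were tested and all called higher (6.37). Of 10 Clec4 genes at chr6:122921848-123289870, 8 were tested and all called higher (7.04). Among all genes tested, 9.27% were called higher in the microglia. Some members, such as Clec4a4 (mean of 0.455 CPM in the cultures and 0 in the PFC) and Cd300ld2 (3.71 and 0.0391), had enough reads only in the cultures. For such members, being tested and being called higher were not independent. Of the 9 tested Ifi200 genes at chr1:173519717-174031810, 6 were called higher (4.48), and of 6 tested Slfn genes at chr11:82951349-83215154, 4 were called higher in the microglia and 1 in the PFC. Genes of such families resemble each other in sequence, so reads could be shared between members.

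Genes that vary with strain or sex also differed. Nnt, the mitochondrial transhydrogenase that is partly deleted in C57BL/6J mice, was at 127, 126, 126 and 129 CPM in the cultures and 19.6, 20.3 and 20.5 CPM in the PFC. Xist, the RNA of the inactive X chromosome, was at 202, 272, 236 and 254 CPM in the cultures and 0.0323 to 0.0774 CPM in the PFC of the male mice, and the Y-linked Ddx3y was at 105, 121, 111 and 109 CPM in the cultures and 39.7, 34.7 and 37.9 CPM in the PFC. Every culture thus held Xist together with Y-linked RNA, whereas the mice held Y-linked RNA alone.

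The 4 cultures were close to each other. Of 9290 genes at a mean of 10 CPM or more, the highest culture exceeded the lowest by a median of 1.1-fold. It exceeded the lowest by over 1.5-fold for 22 genes and by over 2-fold for 1 gene. That gene was the small RNA locus Gm23935 (18.6, 31.2, 39.6 and 22.7 CPM), and Mir6236 (52.2, 45.2, 65.6 and 35.4 CPM) and Gm15564 (53.1, 44.6, 63.1 and 36.8 CPM), 2 more loci of short or repeated RNA, were also among the 10 with the largest ratio. The others were 3 collagens (Col1a2, 1.91-fold, Col3a1, 1.7-fold, and Col1a1, 1.67-fold), the interferon-stimulated Oasl2 (1.72-fold) and Cmpk2 (1.67-fold), the small GTPase Rrad (1.73-fold) and Ms4a4a (1.67-fold). The collagens shared an order, with culture 3 highest and culture 4 lowest.

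Interferon-stimulated genes ordered the cultures by lane. The list summed to 1096, 989.5, 876 and 823 CPM in cultures 2, 3, 4 and 6, of which the first 2 were sequenced in lane 5 and the others in lane 6. For 22 of its 25 genes (88.0%) both lane 5 cultures were above both lane 6 cultures, and for none was it the reverse, beside 15.6% and 13.5% of all genes at a mean of 10 CPM or more. Oas2 was at 41.5, 39.4, 33.1 and 25.3 CPM, Irf7, the factor that amplifies interferon signalling, at 44.9, 38.2, 34.7 and 27.9 CPM, and Rsad2 at 24.4, 27.2, 17.3 and 18.1 CPM. The pan-myeloid sum ran only from 11912 to 12357 CPM, and markers of oligodendrocyte precursors went the other way for 6 of 10 genes. Other lists were also partly ordered by lane. Both lane 5 cultures were above both lane 6 cultures for 6 of 20 pan-myeloid, 6 of 12 cytokine and 5 of 10 class I genes. They were below for 6 of 9 cholesterol efflux, 8 of 15 astrocyte and 5 of 10 endothelial genes. In each of these 6 lists the reverse held for 0 genes. Lane and culture cannot be told apart.

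**Figure D5:**
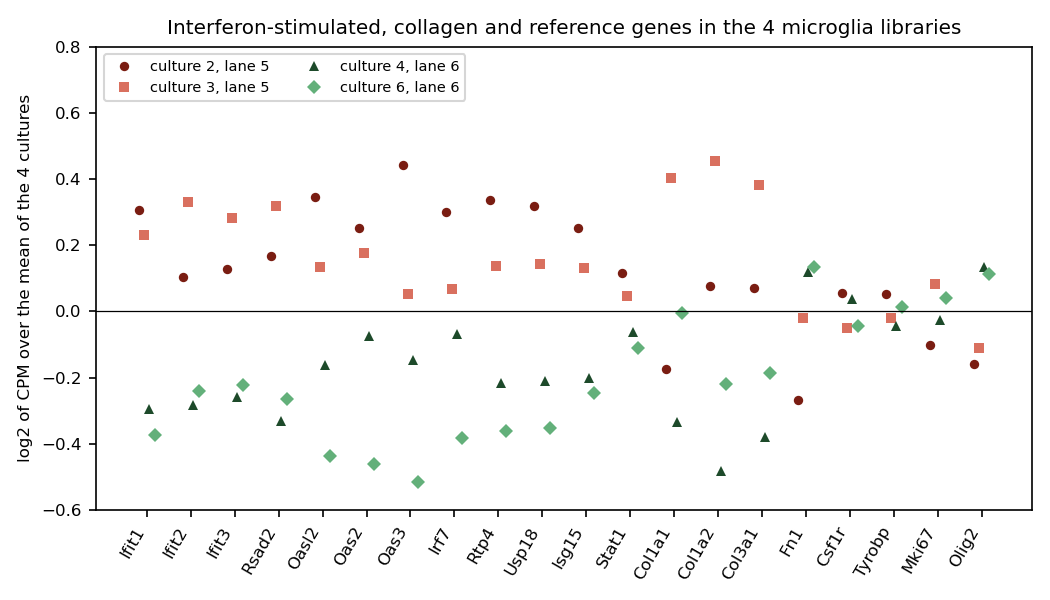
Level of 20 genes in each of the 4 microglia libraries, as log2 of CPM over the mean of the 4 (y axis); shape and colour mark the culture and its lane. For the interferon-stimulated genes on the left, cultures 2 and 3 lie above 0 and cultures 4 and 6 below, while the collagens are highest in culture 3 and Csf1r and Tyrobp stay near 0.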

How the data were processed

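Per the labels and the study's methods, libraries were made from poly-A RNA (TruSeq) and sequenced as single reads of 50 bases. The authors aligned them with STAR 2.5.2b to mm10 and deposited raw counts per gene from featureCounts 1.5.1 (bcl2fastq 2.20.2 and FastQC 0.11.5 before that). The annotation release and the strand setting are not given in the sources used here, so overlapping and antisense genes are uncertain. The microglia and cortex tables were joined by gene identifier, and 0 columns lacked a sample. Co-culture libraries were not used, and anti-miR-99b libraries only as an alternative.

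Counts were tested with edgeR 4.0.16 in R 4.3.3: filterByExpr, TMM factors and the quasi-likelihood F-test with Benjamini-Hochberg adjustment over 17586 genes, on 4 microglia and 3 cortex libraries. A gene was called at an adjusted p under 0.05 and a log2 fold change beyond 3. Values relative to the 20 pan-myeloid genes used log2(CPM + 0.1). Fold bounds used a floor of 3 counts over a group, and intervals are 95% and cover counting error only. Summed lists were compared by exact permutation.

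The 39 gene lists and the members were chosen with earlier results of these data known. Named were the 10 protein-coding genes with the largest fold change in each direction (mean of at least 20 CPM in the higher group), the 10 with the highest CPM in each group, the 10 with the largest ratio among cultures, and list members at the ends of their lists or known as defining markers. Other named list members and the gene families were chosen after their values were seen. Alternatives were other scalings, filters, thresholds and pseudocounts, DESeq2 1.42.0, glmTreat, each library left out, 1 lane, the anti-miR-99b libraries and a replicate block. Same-numbered libraries did not deviate together. Most list members are given only in counts, and some results are not reported here.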

Additional observations from a re-analysis of the deposited data

Results flagged for a closer look

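Among 215 levels and sums examined over the 4 cultures, 8 had a culture that stood apart from the other three by Dixon's gap ratio, where chance gives about 1 in 20. In culture 2, Actb was at 6215 CPM (others up to 5820.0), P2ry6 at 207.0 CPM (others up to 187) and Lgals3 at 755 CPM (others up to 676), all above. In culture 4, Cspg4 was at 70.3 CPM (others up to 64.4) and Tmem119 at 18.4 CPM (others up to 15.8), both above, while Acta2 at 17.9 CPM (others up to 21.45) and the summed pericyte and smooth muscle markers at 35.3 CPM (others from 40.7) were below. In culture 6, Slc2a5 was at 1.62 CPM (others up to 1.15).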

How the results depend on the processing

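No gene called here was called in the opposite direction under any alternative. With DESeq2, other scalings, glmTreat, lane 6 alone (1692 higher in microglia, 3714 in PFC) or the anti-miR-99b libraries (1552 and 3718, of which 1487 and 3400 were also called with sc-control), both counts stayed within 1.5 times. Leaving out each library gave 1598 to 1731 higher in microglia and 3636 to 3793 in PFC. The scaling moved the median log2 fold change over all genes from -0.12 to -0.16 (DESeq2 size factors), -0.22 (upper quartile) and -0.3 (library size only). The low-count filter mattered more: with no filter beyond a total of 1 count, 2239 and 5529 genes were called, and with at least 10 counts in every library 936 and 1503, which removes genes absent from 1 group by construction; the homeostatic list then had 0 genes higher in PFC by edgeR (Siglech was not tested) and the oligodendrocyte precursor list 1. At a log2 fold change beyond 2, 2596 genes were higher in microglia, with 10 homeostatic and 13 interferon-stimulated ones, and beyond 4, 1062, with 2 interferon-stimulated genes, while 7 astrocyte genes were higher in PFC. Of disease-associated genes, 5 lay above the pan-myeloid genes with a pseudocount of 0.1 and 3 with 1, and 2 lay below with sc-control and 1 with the anti-miR-99b libraries. Near 8-fold, Zbp1, Axl, Cd80 and Il1a were not called with library size only (2.87 to 2.95), Il1a and Cd80 without mouse 3 (2.97 and 2.92), Lyve1 without culture 2 or 6 (-2.93 and -2.95) and Ptgs2 without culture 4 or mouse 4 (-2.88 and -2.99). Of interferon-stimulated genes, 4 were called with glmTreat or the anti-miR-99b libraries and 9 without mouse 4. Whether equal lane numbers in the 2 experiments mark the same run is not known. Chosen after seeing the data: the motif share was 18.5% beyond a log2 fold change of 2 and 22.6% beyond 4, and genes over 1.5-fold apart among cultures numbered 9 to 17 with 1 culture left out (22 with all, 9 without culture 6, 13 without culture 4, 14 without culture 2), where fewer cultures give a smaller range.

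Replicate numbers 2, 3 and 4 occur in both groups, but the deviations of same-numbered libraries correlated at 0.025, -0.038 and -0.029, so the numbers pair nothing. With the number as a replicate block, which leaves out culture 6, 1600 genes were higher in microglia and 3638 in PFC. Of these, 1583 and 3584 were also called in the main fit, which had no block and held culture 6.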
